A study of Rattus norvegicus with 49 samples.

Results

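Gene expression in the liver was compared with that in the kidney of vehicle-treated rats. The comparison rests on 5 liver and 5 kidney arrays, 10 of the 49 arrays of the study, which were chosen from the sample titles by organ and a dose of 0 mg/kg. All were from male Harlan Sprague Dawley rats (Hsd:Sprague Dawley SD), an outbred stock, aged 6 to 8 weeks at assignment and fed NTP-2000 diet. These rats received the vehicle of the study, corn oil at 5 mL/kg by gavage for 5 days, and no test agent. The study itself examined propylene glycol phenyl ether, a glycol ether solvent, although the treatment text of the labels names another agent (MCHM). Liver and kidney arrays of rats given 1 mg/kg, 4 of each, served as a repeat in samples that the vehicle comparison did not use. No genotype other than the stock is given, and the labels do not say whether the liver and the kidney of one replicate number came from one rat. The p-values therefore measure the spread between these tissue samples.

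The liver and the kidney share the clearance of foreign compounds and of the waste of metabolism. Hepatocytes take up drugs, bile acids and hormones from the blood, oxidise them with cytochrome P450 enzymes, conjugate them to glucuronic acid, sulfate or glutathione, and export the products into bile. They also make bile acids, urea and most plasma proteins. The nephron filters the plasma, and its proximal tubule recovers sugars, amino acids, phosphate and filtered proteins while it secretes organic anions and cations into urine. Later segments, the thick ascending limb, the distal convoluted tubule and the collecting duct, adjust salt, acid and water.

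Total RNA was hybridised to Affymetrix Rat Genome 230 2.0 arrays, and levels are RMA values on a log2 scale, on which a difference of 1 is a doubling of the signal. Differences are liver minus kidney, so that negative values mean a higher level in the kidney. Levels are means ± SD over 5 arrays. A gene was called when its limma p, adjusted by Benjamini and Hochberg over the 14217 genes tested, was under 0.05. Arrays of one organ correlated at 0.990 to 0.993 in liver and 0.992 to 0.995 in kidney across genes, and arrays of different organs at 0.781 to 0.790. Spike-in controls added at hybridisation read 10.90 ± 0.10 in liver and 10.97 ± 0.06 in kidney. The array median was 6.47 to 6.56 in liver and 6.70 to 6.75 in kidney. Every liver array is thus also a low-median array, and organ and array processing cannot be told apart.

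Because the files hold no detection calls, a background level was taken from 53 genes of other tissues, such as brain, eye, testis and muscle. The 90th percentile of their mean levels was 5.48 in liver and 5.20 in kidney, and a gene at or below it is described as not shown above background in that organ. A fold is then given as "at least", the higher mean against this level. These 53 genes were themselves offset by a median of 0.28 toward liver, and 28 of them were called higher in liver and 2 higher in kidney. None of the 53 reached a 4-fold difference, the largest being 1.29 on the log2 scale. The adjusted p alone was thus passed by genes with no known part in either organ, and a called difference of at least 4-fold was used as the rule for organ differences.

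Of 14217 genes, 10255 (72.1%) were called, 4877 (34.3%) of them higher in liver and 5378 (37.8%) higher in kidney, but 6975 of the called differences were under 2-fold. By the 4-fold rule 595 genes (4.19%) were higher in liver and 832 (5.85%) were higher in kidney. In 1423 of these 1427 genes the 5 arrays of one organ did not overlap the 5 of the other. The same held for 8224 of all 10255 called genes, so this count adds little to the 4-fold rule. Kidney genes were more numerous at 4-fold, while liver genes were more numerous at the extremes: with readings at or below background set to the background level, which makes each size a lower bound, 221 liver and 128 kidney genes differed at least 16-fold, and 29 and 3 genes at least 256-fold. On these bounds 544 liver and 633 kidney genes still differed at least 4-fold, and the median size was 3.21 in liver genes and 2.55 in kidney genes on the log2 scale, against 3.52 and 2.94 as measured. Of the liver genes 277 were not shown above background in kidney, and of the kidney genes 471 were not shown above background in liver. Toward kidney, the genes nearest the 4-fold limit were Lypd6b (-2.0002) inside it and Hk1 (-1.9977) outside it. Toward liver they were Sorbs2 (2.0038) inside and Pcp4l1 (1.9994) outside. When each array was centred on its own median, which moved the median difference of all genes from 0.0034 to 0.20, the called genes split into 6876 higher in liver and 4239 higher in kidney. The 4-fold counts were then 665 and 724, so that which organ held more of the called genes depended on the scale, while kidney genes stayed more numerous at 4-fold.

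**Figure D1:**
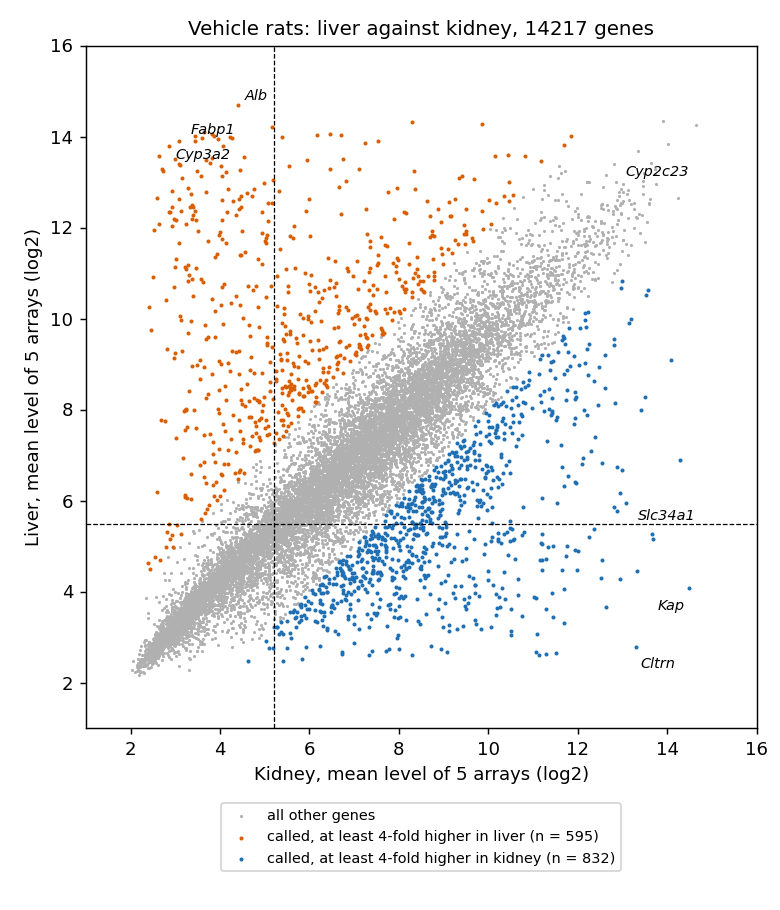
Mean log2 level of each of 14217 genes in 5 vehicle kidney arrays (horizontal axis) and 5 vehicle liver arrays (vertical axis). Orange points are the 595 genes called and at least 4-fold higher in liver, and blue points the 832 called and at least 4-fold higher in kidney. Grey points are all other genes, and dashed lines mark the background level of each organ (5.20 in kidney and 5.48 in liver). The liver genes form a column at low kidney levels, where Alb, Cyp3a2 and Fabp1 lie, and the kidney genes form a band at low liver levels, where Kap, Cltrn and Slc34a1 lie.

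The arrays carried the defining genes of their labelled organs. All 8 hepatocyte markers were at least 4-fold higher in liver, with a mean over the list of 13.04 to 13.25 in the liver arrays and 4.43 to 4.82 in the kidney arrays, and 7 of the 8 were not shown above background in kidney. Albumin (Alb), the main plasma protein, read 14.69, 14.72, 14.67, 14.70 and 14.71 in the liver arrays and 4.15, 4.24, 4.15, 4.93 and 4.54 in the kidney arrays. All 9 markers of the proximal tubule were at least 4-fold higher in kidney, at 12.09 to 12.33 against 5.55 to 5.70 in liver. Slc34a1, the phosphate cotransporter of that segment, read 13.61, 13.65, 13.75, 13.63 and 13.63 in kidney and 5.34, 5.46, 5.25, 5.00 and 5.29 in liver. Kap, an androgen-regulated gene of the proximal tubule, read 14.50 ± 0.03 in kidney and 4.09 ± 0.23 in liver, at least 517.5-fold higher.

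Markers of the other nephron segments were higher in kidney too. Umod, the urinary protein of the thick ascending limb, read 12.95 ± 0.27 against 4.27 ± 0.39, and Slc12a1, the salt cotransporter of that limb, 11.30 ± 0.36 against 2.63 ± 0.28. The distal convoluted tubule was represented by Slc12a3 at 9.41 ± 0.18 against 4.66 ± 0.32, although Pvalb was not shown above background in either organ. The water channels of the collecting duct principal cell, Aqp2 and Aqp3, read 10.22 ± 0.22 and 9.21 ± 0.19 in kidney and lay below background in liver. Atp6v1b1, the proton pump subunit of intercalated cells, read 9.02 ± 0.10 against 4.24 ± 0.42. Among podocyte genes Nphs1 was low, at 5.93 ± 0.30 in kidney against 2.79 ± 0.25 in liver.

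Non-parenchymal cells contributed to both organs. All 8 markers of Kupffer cells and macrophages were called higher in liver, at a list mean of 8.74 to 9.11 against 6.12 to 6.28. Clec4f, a lectin receptor of Kupffer cells chosen after its value was seen, read 10.71 ± 0.12 against 4.80 ± 0.29, and Cd163 7.56 ± 0.17 against 3.22 ± 0.10. Endothelial markers divided: Pecam1 was 2.18-fold higher in kidney and Kdr 1.92-fold higher in liver, while Stab2, a scavenger receptor of liver sinusoids chosen here after its value was seen, read 9.01 ± 0.07 in liver and 4.17 ± 0.11 in kidney. Krt7 and Krt19, keratins used as bile duct markers, were both higher in kidney (Krt7 10.24 ± 0.08 against 3.87 ± 0.28), where collecting duct cells are known to make them as well. Markers of T and B lymphocytes, adrenal cortex and skeletal muscle averaged 3.15 to 4.99 in every array of both organs, and pancreatic markers 4.38 to 4.78; at or below background were all lymphocyte and muscle markers, 6 of 7 pancreatic markers in each organ, and 4 of 4 adrenal markers in liver and 3 of 4 in kidney. Adipocyte markers averaged 5.54 to 5.93 in the liver arrays and 5.27 to 6.53 in the kidney arrays, with 4 of 6 and 3 of 6 at or below background. In whole tissue, more cells of a type and more RNA per cell cannot be told apart.

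The genes with the largest measured differences toward liver included drug-metabolising P450 enzymes and secreted proteins. Cyp3a2, the androgen-dependent steroid and drug hydroxylase of the male rat liver, read 13.83, 13.82, 13.73, 13.83 and 13.80 in liver and 2.83, 2.83, 3.02, 3.02 and 2.60 in kidney, at least 387-fold higher (difference 10.94 ± 0.08 SE, adjusted p = 1.36e-16). Fabp1, the liver carrier of fatty acids, read 13.90 ± 0.06 against 3.09 ± 0.19, and Cps1, which commits ammonia to the urea cycle, 13.25 ± 0.06 against 2.72 ± 0.20. The group also held Cyp2c6v1, Cyp2c13, Ugt2b, the fibrinogen chain Fgg and the inhibitors Serpina1 and Serpina3l. Its remaining members were the carriers Apoa1, Apoc1, Alb and Ahsg, and Itih3 and Itih4. Each of the 15 lay between 12.9 and 14.7 in every liver array and below background in kidney. The order among them rests on kidney readings near background and carries no rank.

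Toward kidney the group held many proteins of apical transport. Cltrn (collectrin), which brings amino acid transporters to the brush border, read 13.26, 13.20, 13.41, 13.41 and 13.20 in kidney and 2.52, 3.37, 2.46, 3.04 and 2.51 in liver, at least 225-fold higher (difference -10.52 ± 0.16 SE, adjusted p = 2.11e-14). Slc3a1 and Slc7a9, the subunits of the cystine transporter, read 13.69 ± 0.24 against 5.15 ± 0.23 and 11.10 ± 0.17 against 3.06 ± 0.28. Slc7a13, an aspartate and glutamate carrier of the straight proximal tubule, read 13.58, 13.23, 12.55, 13.37 and 13.94 in kidney and 4.19 to 4.64 in liver. Calb1, the calcium buffer of the distal tubule, read 12.64 ± 0.33 against 3.67 ± 0.17. Fxyd2, which modulates the sodium pump, read 12.52 ± 0.06 against 4.30 ± 0.26. Umod, Slc12a1, Slc34a1, Kap, the tight junction protein Cldn10, the basement membrane protein Tinag, Lrrc19, Gba3 and the proton pump subunit Atp6v1g3 completed the group.

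**Figure D2:**
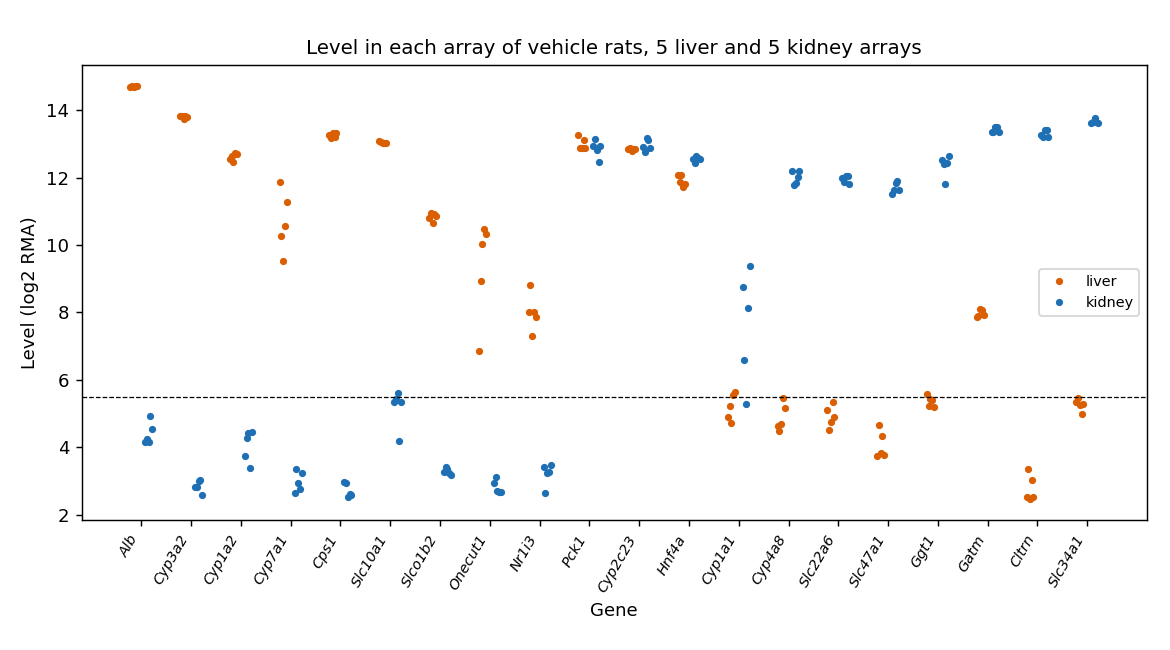
Log2 level of 20 genes in each of the 5 liver arrays (orange) and 5 kidney arrays (blue) of vehicle rats, 1 point per array, with the dashed line at the higher of the background levels (5.48). Alb and Cyp3a2 are high in every liver array and Slc34a1 and Slc22a6 in every kidney array, Cyp2c23, Pck1 and Hnf4a are high in both organs, and the kidney values of Cyp1a1 spread from 5.29 to 9.38.

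Of 41 hepatic and renal transcription factors measured, 13 were called higher in liver, 11 of them at least 4-fold, and 27 higher in kidney, 18 at least 4-fold; all genes gave 4.19% and 5.85% at 4-fold. The forkhead factor Foxa2 read 8.95 ± 0.61 in liver and 3.36 ± 0.20 in kidney, and Creb3l3, a membrane-bound factor of hepatocytes, 11.08 ± 0.20 against 5.48 ± 0.32. Onecut1 (HNF6) read 6.85, 8.93, 10.02, 10.47 and 10.33 in liver and 2.67 to 3.11 in kidney, and was low in liver replicate 1 though still above every kidney array. On the kidney side Hoxd8 read 10.66 ± 0.10 against 4.27 ± 0.24, Pou3f3, a factor of the nephron, 8.93 ± 0.24 against 2.74 ± 0.15, and Emx2 8.29 ± 0.11 against 2.61 ± 0.27. Irx1 was not called (difference -0.61, adjusted p = 0.0753), but was called without kidney replicate 3 (-0.87, adjusted p = 0.00438) or without liver replicate 5 (-0.76, adjusted p = 0.0375). A limma fit of all 49 arrays also called it (adjusted p = 0.0358).

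Of 29 nuclear receptors measured, 12 were called higher in liver and 9 in kidney, a share close to the 72.1% of all genes, with 3 and 1 at least 4-fold (4.19% and 5.85% of all genes). Nr1i3 (CAR), the receptor that induces Cyp2b genes on exposure to phenobarbital, read 8.00, 8.82, 7.30, 8.03 and 7.85 in liver and 2.65 to 3.47 in kidney, at least 6.95-fold higher. Nr1i2 (PXR), which induces Cyp3a genes, read 8.50 ± 0.11 against 6.53 ± 0.20, a 3.91-fold difference. Nr5a2, a regulator of bile acid synthesis, read 8.99 ± 0.22 against 3.49 ± 0.39, and its repressor partner Nr0b2 8.66 ± 0.45 against 5.26 ± 0.29. Hnf4a, a main factor of hepatocytes that is also present in the proximal tubule, was chosen after its value was seen and read 12.06, 11.87, 12.09, 11.72 and 11.80 in liver and 12.56, 12.44, 12.63, 12.58 and 12.54 in kidney, 1.56-fold higher in kidney. Esrrg, a regulator of mitochondrial genes, was 4.11-fold higher in kidney. Ahr, the dioxin receptor, was not shown above background in either organ and was chosen here after its value was seen (4.95 ± 0.08 and 4.48 ± 0.18), and Ppard was not called (difference -0.03).

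The promoters of the 4-fold genes were searched for short motifs of factors named above or known in these organs, in the window from 250 bases before to 50 bases after the RefSeq start (build GRCr8). A promoter was found for 11734 of the 14217 genes, for 479 of the 595 liver genes and for 668 of the 832 kidney genes. The HNF1 motif GTTAATNAT, read on both strands, occurred in 0.494% of all promoters, in 3.55% of liver promoters (17 genes) and in 1.2% of kidney promoters (8 genes). The HNF4 motif CAAAGTCCA, on both strands, occurred in 0.366%, 1.67% and 0.449%. The C/EBP motif TTNNGNAA, on both strands, occurred in 31.6%, 41.3% and 32.2%, and the TATA box TATAAA, on the sense strand, in 5.8%, 12.3% and 6.89%. In genes at least 16-fold higher in liver the shares were 7.39% for HNF1 and 20.2% for TATA, and in kidney genes of that size 2.56% and 12.2%. Matches of different motifs overlapped only between HNF4 and C/EBP, in 4 of all promoters and in 0 of the 4-fold genes. The mean GC content was 59.7% in all promoters, 55.5% in liver 4-fold genes and 60% in kidney 4-fold genes. The liver promoters, which held more matches of these AT-rich motifs, were thus also poorer in GC. At 16-fold the GC content was 51.1% in liver genes and 55.5% in kidney genes, so kidney genes of that size were GC-poor too. The matches are a description of letters and were not tested.

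Members with an HNF1 match included 8 secreted liver proteins of the lists (Alb, C4bpa, Plg, Fga, Gc, Afp, C5 and Rup2) and the bile acid and drug carrier Slco1b2, and on the kidney side Cltrn, the amino acid carrier Slc7a12, the brush border protease Mep1b and the proton pump subunit Atp6v0a4, all chosen after the matches were seen. The promoters of 2 liver and 2 kidney genes are shown because they carry the same motif at the start of genes that differ in opposite directions. Each is read 5′ to 3′ along the gene, the 250 bases before the start, with the HNF1 match in capitals. The match begins 82 bases before the start in Alb (chr14:17906980-17907229, minus strand), 63 in Slco1b2 (chr4:176282334-176282583, plus strand), 132 in Cltrn (chrX:34027125-34027374, minus strand) and 62 in Atp6v0a4 (chr4:67809093-67809342, minus strand).
Alb: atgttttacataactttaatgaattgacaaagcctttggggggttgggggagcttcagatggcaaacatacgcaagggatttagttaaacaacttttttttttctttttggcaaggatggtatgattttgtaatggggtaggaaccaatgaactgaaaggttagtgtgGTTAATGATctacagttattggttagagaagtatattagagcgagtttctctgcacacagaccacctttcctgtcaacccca
Slco1b2: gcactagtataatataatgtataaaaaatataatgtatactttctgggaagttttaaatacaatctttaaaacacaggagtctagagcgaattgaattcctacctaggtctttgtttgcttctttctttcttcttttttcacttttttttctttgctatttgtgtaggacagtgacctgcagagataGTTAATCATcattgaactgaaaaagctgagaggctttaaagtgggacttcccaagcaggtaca
Cltrn: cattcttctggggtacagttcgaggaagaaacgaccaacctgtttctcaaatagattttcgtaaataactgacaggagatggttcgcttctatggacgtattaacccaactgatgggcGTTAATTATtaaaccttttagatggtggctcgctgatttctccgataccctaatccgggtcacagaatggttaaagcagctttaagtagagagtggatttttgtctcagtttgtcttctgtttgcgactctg
Atp6v0a4: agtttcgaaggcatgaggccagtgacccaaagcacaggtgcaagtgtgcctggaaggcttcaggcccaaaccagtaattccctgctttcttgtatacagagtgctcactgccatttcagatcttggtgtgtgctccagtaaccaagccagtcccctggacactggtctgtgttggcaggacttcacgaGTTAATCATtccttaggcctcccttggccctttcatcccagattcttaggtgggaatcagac
Slco1b2 carried these letters with levels of 10.81, 10.94, 10.64, 10.92 and 10.85 in liver and 3.19 to 3.40 in kidney, and Atp6v0a4 with 3.85 ± 0.27 in liver and 11.06 ± 0.08 in kidney.

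Enzymes that oxidise, reduce or hydrolyse foreign compounds lay mainly on the liver side. Of 114 such genes measured in 12 lists, 74 were called higher in liver and 25 higher in kidney (34.3% and 37.8% of all genes). By the 4-fold rule 45 were higher in liver and 6 in kidney, 44.7% together (4.19% and 5.85% of all genes). The median difference was 1.01 against 0.0034 for all genes. The same shares of all genes apply to every list below. Of 16 P450 enzymes of families 2A to 2D measured, which oxidise drugs and steroids, 14 were called higher in liver, 11 at least 4-fold, and none in kidney (median 7.49). Cyp2c6v1 read 13.60, 13.63, 13.52, 13.61 and 13.52 in liver and 2.43 to 2.97 in kidney. Cyp2c13, Cyp2c22, Cyp2c7, Cyp2a2 and Cyp2b3 were each at least 125-fold higher in liver. All 4 members of family 3 measured were at least 4-fold higher in liver, from Cyp3a9 (8.01 ± 0.63 against 3.25 ± 0.40) to Cyp3a2. Sequences within these subfamilies are nearly identical, so a probe set may also read its neighbours. Cyp2c12, known as the form of female rats, read 11.80, 11.20, 11.61, 9.82 and 11.23 in these male livers and 2.69 to 3.72 in kidney, and was chosen after its value was seen.

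Cyp2c23, which makes epoxides of arachidonic acid, stood at a high level in both organs. It read 12.84, 12.87, 12.80, 12.86 and 12.85 in liver and 12.89, 12.76, 13.16, 13.12 and 12.86 in kidney, and the groups overlapped (difference -0.12 ± 0.08 SE, adjusted p = 0.219), although quantile normalization between arrays gave -0.23 and a call (adjusted p = 0.0442). Cyp2e1, the ethanol-oxidising form, was present in both, at 13.57 ± 0.14 in liver and 10.83 ± 0.31 in kidney (6.67-fold). Cyp2j3 (9.61 ± 0.13 against 4.68 ± 0.21) and Cyp2f4 (9.15 ± 0.06 against 4.70 ± 0.26) were above background in liver alone, while Cyp2j4 was 4.58-fold higher in liver and Cyp2u1 was not called (6.49 ± 0.24 and 6.48 ± 0.15).

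The P450 family 1 enzymes, which oxidise planar aromatic compounds, divided by gene. Cyp1a2 read 12.55, 12.64, 12.46, 12.71 and 12.71 in liver and 3.37 to 4.46 in kidney, at least 170-fold higher. Cyp1a1 read 8.76, 6.59, 5.29, 8.12 and 9.38 in kidney and 4.90, 5.21, 4.73, 5.56 and 5.64 in liver (difference -2.42 ± 0.63 SE, adjusted p = 0.00421). The kidney arrays of Cyp1a1 spanned over 4 log2 units, and replicate 3 lay within the liver values. Cyp1b1 was not called and not shown above background in either organ.

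Family 4, the fatty acid omega-hydroxylases, held the P450 gene with the largest difference toward kidney. Cyp4a8 read 12.20, 11.79, 11.83, 12.01 and 12.20 in kidney and 4.65, 4.49, 4.70, 5.47 and 5.15 in liver, at least 91.95-fold higher (difference -7.11 ± 0.17 SE, adjusted p = 1.53e-12). Of the 10 members measured 8 were called higher in liver, 4 at least 4-fold, among them Cyp4f4 (10.06 ± 0.13 against 3.11 ± 0.28) and Cyp4v3 (9.79-fold). The electron donors of P450 enzymes differed little: Cyb5a, cytochrome b5, was 2.87-fold higher in liver, and Por, the reductase, was 1.52-fold higher in kidney, a difference not called when all its probe sets were averaged (-0.17, adjusted p = 0.306).

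Of 4 flavin monooxygenases, which oxidise nitrogen and sulfur atoms, 3 were called higher in kidney and 1 in liver. Fmo2 read 8.51, 8.63, 8.75, 8.23 and 8.27 in kidney and 3.02 to 3.89 in liver, at least 7.98-fold higher, although another probe set of Fmo2 differed by under 2-fold. Fmo4 was 12.3-fold and Fmo1 1.71-fold higher in kidney, and Fmo5 was 5.37-fold higher in liver. Of 11 carboxylesterases and related hydrolases 10 were called higher in liver, 7 at least 4-fold. Ces1c, a plasma esterase, read 13.14 ± 0.19 against 4.04 ± 0.33, and Pon1, paraoxonase, 13.13 ± 0.05 against 3.58 ± 0.34. Among aldehyde dehydrogenases Aldh1l2, a mitochondrial folate enzyme, read 10.33 ± 0.13 against 4.26 ± 0.36 and Aldh3a2 was 8.60-fold higher in liver, while Aldh4a1 was not called (difference 0.06). Uox, urate oxidase, read 11.84 ± 0.19 in liver and 5.06 ± 0.50 in kidney, and Aox1, aldehyde oxidase, was 43.3-fold higher in liver. Dao, D-amino acid oxidase, was 7.05-fold higher in kidney, and Hao1 and Hao2, the hydroxyacid oxidases, were 35.4-fold higher in liver and 3.02-fold higher in kidney.

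Aldo-keto and carbonyl reductases had 12 of 20 members called higher in kidney, but only 1 by 4-fold, and 6 called higher in liver, 4 by 4-fold. Akr1c14, the 3-alpha-hydroxysteroid dehydrogenase, read 11.12 ± 0.14 in liver and 3.46 ± 0.12 in kidney, and Akr1d1, a step of bile acid synthesis, was 55.3-fold higher in liver. Hsd11b2, which inactivates corticosterone in mineralocorticoid target cells, read 11.85 to 12.04 in kidney and 6.79, 5.99, 6.94, 5.57 and 6.76 in liver, a 46.5-fold difference.

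**Figure D3:**
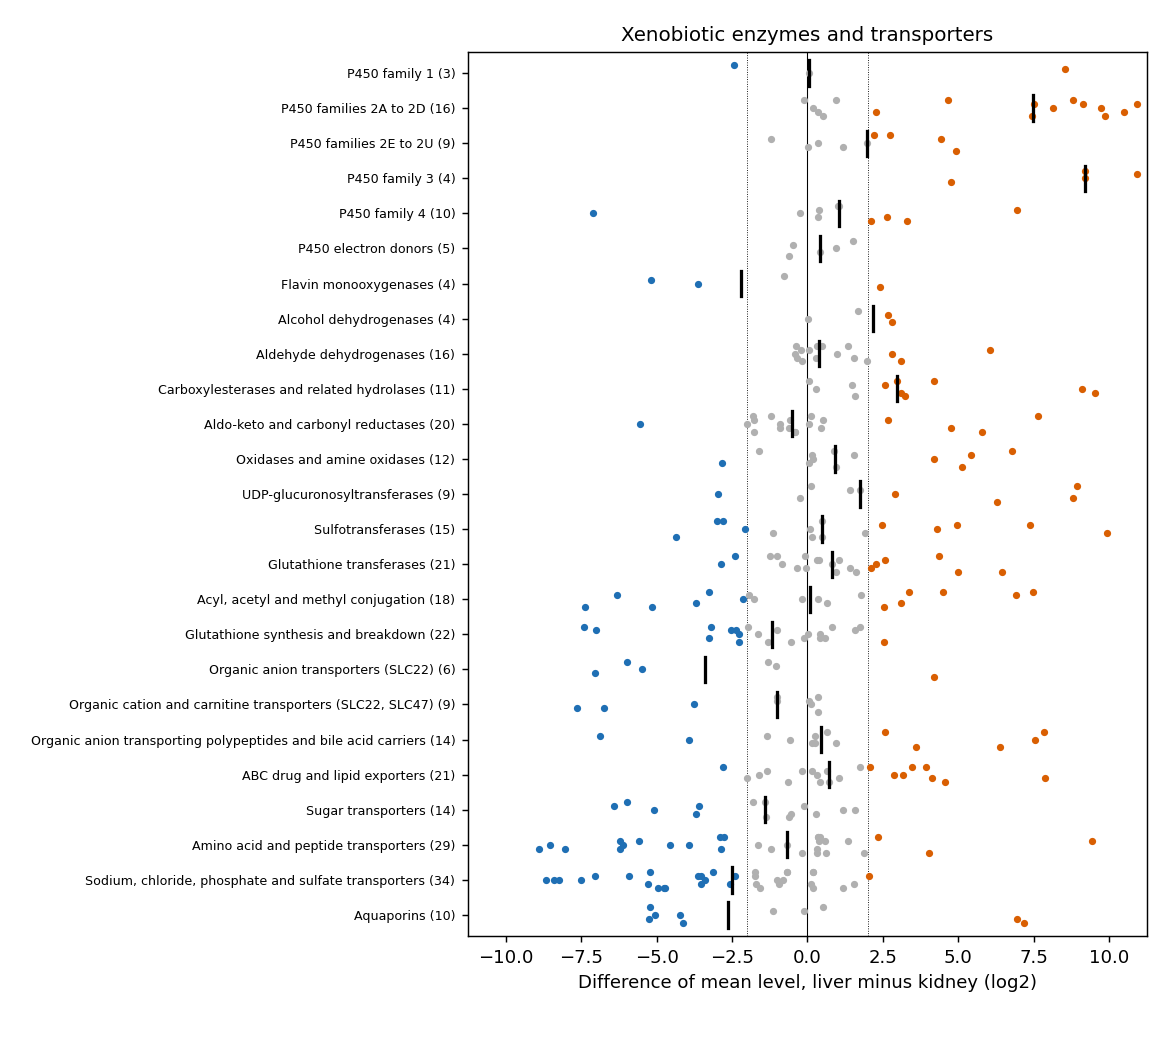
Difference of mean log2 level, liver minus kidney, for every measured member (points) of 25 lists of xenobiotic enzymes and transporters; the bar marks the median of each list, orange points were called and at least 4-fold higher in liver, blue points called and at least 4-fold higher in kidney, and grey points neither. The P450 families 2A to 2D and 3 lie to the liver side with medians of 7.49 and 9.22, and the organic anion transporters to the kidney side with a median of -3.39.

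Conjugating enzymes were divided between the organs. Of 85 genes in 5 lists, 40 were called higher in liver and 33 higher in kidney (34.3% and 37.8% of all genes). At 4-fold there were 22 and 21 (4.19% and 5.85% of all genes), and the median was 0.32. Of 9 glucuronosyltransferases 6 were called higher in liver, 4 at 4-fold, and 1 higher in kidney. Ugt2b15 read 12.32, 12.49, 12.46, 12.41 and 12.13 in liver and 3.14 to 3.69 in kidney, and Ugt2b1 and Ugt2b10 were at least 126-fold and 34.4-fold higher in liver. Ugt2b7 read 7.44, 7.84, 7.92, 8.80 and 6.16 in kidney and 4.14 to 5.19 in liver, at least 4.44-fold higher. The UGT2B genes are close copies, and their probe sets may read each other. Ugdh, which makes the glucuronic acid donor, was not called (10.93 ± 0.16 and 10.83 ± 0.08).

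Sulfotransferases had 8 of 15 members called higher in liver and 5 higher in kidney (34.3% and 37.8% of all genes). At 4-fold there were 5 and 4 (4.19% and 5.85% of all genes). Sult1e1, the estrogen sulfotransferase, read 13.24, 12.95, 12.68, 13.32 and 13.26 in liver and 2.90 to 3.37 in kidney, at least 236.5-fold higher. Sult1c3 was at least 163-fold, Sult2a6 at least 13.8-fold and Sult1a1 19.7-fold higher in liver. Sult1c2 read 12.40, 12.57, 12.63, 12.38 and 12.28 in kidney and 7.82 to 8.23 in liver, 20.6-fold higher in kidney, and its close copy Sult1c2a was 7.99-fold higher in kidney. Papss1 and Papss2, which make the sulfate donor, were chosen after their values were seen and differed in opposite directions, 7.001-fold higher in kidney and 5.59-fold higher in liver.

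Of 21 glutathione transferases 11 were called higher in liver and 6 in kidney (34.3% and 37.8% of all genes), with 6 and 2 at 4-fold (4.19% and 5.85% of all genes). Mgst2 read 11.31 ± 0.05 against 4.86 ± 0.22, at least 68.8-fold higher in liver, and Gstm1 and Gstm2 were 32.1-fold and 20.8-fold higher in liver. Gstp1, the pi class enzyme, read 11.80, 11.83, 11.50, 12.07 and 11.91 in kidney and 8.87 to 9.06 in liver, 7.31-fold higher in kidney. Gstt3 was 5.26-fold higher in kidney. Gstm5 was not called (difference -0.03).

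A list of glutathione genes lay mainly on the kidney side, with 13 of 22 members called there, 8 at 4-fold, against 7 and 1 in liver (median -1.16). Beside steps that make and take apart glutathione, it holds the peroxidase Gpx3 and the mercapturic acid enzymes Acy1 and Acy3, which are among the 8. Ggt1, the brush border enzyme that opens glutathione conjugates on the way to mercapturic acids, read 12.51, 12.39, 11.82, 12.45 and 12.64 in kidney and 5.20 to 5.57 in liver, at least 118-fold higher. Gpx3, the plasma glutathione peroxidase, read 14.32, 14.31, 14.30, 14.31 and 14.23 in kidney and 6.75 to 7.03 in liver, 169-fold higher. Gclc, the rate-limiting step of glutathione synthesis, was 9.54-fold higher in kidney. Acy1 and Acy3, which deacetylate mercapturic acids, were 9.20-fold and 5.75-fold higher in kidney. Chac1, which degrades glutathione inside the cell, was 5.88-fold higher in liver, with liver arrays from 6.64 to 9.06.

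Acyl, acetyl and methyl conjugation had 8 of 18 genes called on each side (34.3% of all genes in liver and 37.8% in kidney). At 4-fold there were 6 on each side (4.19% and 5.85% of all genes). Baat, which joins bile acids to glycine and taurine, read 12.80 ± 0.02 in liver and 5.32 ± 0.13 in kidney. Pemt, which makes phosphatidylcholine, was at least 72.9-fold and Nnmt, nicotinamide methyltransferase, 22.8-fold higher in liver. Hnmt, which inactivates histamine, read 10.90, 10.44, 9.57, 10.57 and 11.05 in kidney and 2.75 to 3.61 in liver, although another probe set of Hnmt differed by under 2-fold. Acsm2, an acyl-CoA synthetase of the proximal tubule, was 79.2-fold and Nat8b, of the family that acetylates cysteine conjugates, 35.1-fold higher in kidney.

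Transporters lay mainly on the kidney side. Of 137 genes in 8 lists, 78 were called higher in kidney and 40 in liver (37.8% and 34.3% of all genes). At 4-fold there were 49 and 20 (5.85% and 4.19% of all genes), and the median was -0.93. The organic anion transporters of the SLC22 family carry drugs and urate at the basolateral or apical face of the proximal tubule. Slc22a6 (OAT1) read 11.98, 11.85, 12.06, 12.04 and 11.82 in kidney and 5.10, 4.51, 4.76, 5.34 and 4.91 in liver, at least 88.5-fold higher (difference -7.03 ± 0.13 SE, adjusted p = 1.5e-13). Slc22a12, the urate exchanger, was at least 24.8-fold and Slc22a25 at least 39.6-fold higher in kidney, and Slc22a8 (OAT3) 2.45-fold, although another probe set of Slc22a8 read 8.68 in both organs (difference -0.0079). Slc22a7 (OAT2) ran the other way, with 10.73, 10.83, 10.68, 10.99 and 10.66 in liver and 7.05, 6.04, 5.44, 6.50 and 7.90 in kidney, 18.2-fold higher in liver.

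Organic cations leave the proximal tubule cell through Slc47a1 (MATE1) after uptake by Slc22a2 (OCT2). Slc47a1 read 11.51, 11.62, 11.85, 11.90 and 11.63 in kidney and 3.74 to 4.66 in liver, at least 74.65-fold higher. Slc22a2 read 11.76 ± 0.43 against 5.01 ± 0.21, at least 77.7-fold, and the carnitine transporter Slc22a5 was 13.4-fold higher in kidney. Slc22a17 was not called.

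Carriers of bile acids and of large anions were divided. Slc10a1 (NTCP), which takes bile acids from blood into the hepatocyte, read 13.07, 13.06, 13.01, 13.04 and 13.03 in liver and 4.18 to 5.62 in kidney. The difference was 7.85 on the log2 scale. Only kidney replicate 4 (4.18) lay below background, the other kidney arrays reading 5.34 to 5.62, so no lower bound of the fold is given. Slco1b2 and Slco1a4, uptake carriers of drugs and bile acids, were at least 49.5-fold higher in liver and 83.9-fold higher in liver, respectively. Slco1a6 read 10.61, 10.20, 8.63, 10.04 and 10.87 in kidney and 2.75 to 3.63 in liver, at least 24.1-fold higher. Slc51a, a subunit of the bile acid and steroid exporter, was at least 8.48-fold higher in kidney.

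Of 21 ABC exporters 14 were called higher in liver and 6 in kidney (34.3% and 37.8% of all genes). At 4-fold there were 8 and 1 (4.19% and 5.85% of all genes). Abcb11 (BSEP), the bile salt pump, read 11.12, 11.33, 11.11, 11.22 and 11.08 in liver and 2.91 to 3.48 in kidney, at least 62.6-fold higher. Abcc2 (MRP2), which exports conjugates, was 17.7-fold higher in liver, and Abcb4, Abcg5 and Abca1, exporters of phospholipid and sterol, were at least 14.4-fold, at least 8.31-fold and 11.2-fold higher in liver. Abcc4 (MRP4) was the 1 exporter past 4-fold in kidney, at 8.71, 8.61, 9.08, 8.78 and 8.48 against 5.55 to 6.25, and was chosen after its value was seen.

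Carriers that recover filtered nutrients followed. Of 14 sugar transporters 10 were called higher in kidney (37.8% of all genes), 5 at 4-fold (5.85%), and none at 4-fold in liver (4.19%). Slc5a2 (SGLT2), the main glucose carrier of the early proximal tubule, read 10.16, 10.52, 10.86, 10.59 and 10.34 in kidney and 5.03 to 5.83 in liver. Slc5a11 and Slc5a12, carriers of inositol and lactate, were at least 12.4-fold and 12.1-fold higher in kidney, and the fructose carrier Slc2a5 was 3.50-fold higher in kidney. Of 29 amino acid and peptide transporters 15 were called higher in kidney and 7 in liver, a share close to the 72.1% of all genes. At 4-fold 12 were higher in kidney and 3 in liver (5.85% and 4.19% of all genes). Slc1a1, a glutamate carrier, was at least 25.9-fold and Slc15a2, the peptide carrier, at least 15.5-fold higher in kidney. Slc38a4, a neutral amino acid carrier of the hepatocyte, read 12.07, 12.05, 12.20, 11.96 and 12.05 in liver and 2.24 to 3.18 in kidney, at least 116-fold higher.

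Salt, phosphate and sulfate transporters had 27 of 34 members called higher in kidney, 18 at 4-fold, against 3 and 1 in liver (median -2.49). Beside Slc12a1, Slc34a1 and Fxyd2, the potassium channel subunits Kcnj15 and Kcnj16 read 12.24 ± 0.09 and 11.98 ± 0.10 in kidney and lay below background in liver, although another probe set of Kcnj15 differed by under 2-fold. Slc13a1, the sulfate carrier, read 10.36 ± 0.31 against 4.43 ± 0.20. Slc20a1, a phosphate carrier of many cell types, was not called.

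Of 10 aquaporins 3 were called higher in liver and 6 in kidney (34.3% and 37.8% of all genes). At 4-fold there were 2 and 5 (4.19% and 5.85% of all genes). Aqp9, which passes glycerol and urea into hepatocytes, read 10.81, 10.68, 10.58, 11.08 and 10.90 in liver and 3.26 to 3.92 in kidney. Aqp8 was at least 72.6-fold higher in liver. Aqp2, the vasopressin-regulated water channel, read 10.07, 10.26, 10.14, 10.04 and 10.59 in kidney and 4.84 to 5.49 in liver, and Aqp1, Aqp3 and Aqp7 were 37.0-fold, at least 13.3-fold and 18.6-fold higher in kidney. Aqp6 was not shown above background in either organ.

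Bile acid synthesis lay in liver: 14 of 15 genes were called higher there, 10 at 4-fold, and none in kidney (median 4.69). Cyp7a1, the rate-limiting enzyme, read 11.85, 10.26, 9.53, 10.57 and 11.28 in liver and 2.64 to 3.36 in kidney, at least 45.1-fold higher, with a spread among livers of 0.90 (SD). Cyp8b1 was at least 45.5-fold and the bile acid CoA ligase Slc27a5 at least 140-fold higher in liver. Retinoid and steroid enzymes followed: Rdh7 (12.46 ± 0.09 against 2.93 ± 0.39), Hsd3b5 (12.08 ± 0.14 against 3.23 ± 0.26) and Hsd17b6, which varied from 9.62 to 11.53 among livers.

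Nitrogen metabolism differed step by step. In the urea cycle Cps1, Otc (11.93 ± 0.03 against 3.51 ± 0.17) and Arg1 (12.84 ± 0.16 against 4.18 ± 0.47) were above background in liver alone, whereas Asl was not called (10.12 ± 0.19 and 9.97 ± 0.22). Asl was called higher in liver with all its probe sets averaged (0.42, adjusted p = 0.00631) and with each array centred on its median (0.35, adjusted p = 0.0188). Ass1, chosen after its value was seen, was 1.45-fold higher in kidney, where citrulline is converted to arginine. Tdo2, the first step of tryptophan breakdown, read 12.74 ± 0.07 against 3.34 ± 0.22, and Tat, tyrosine aminotransferase, 9.85 ± 0.61 against 3.66 ± 0.19. Haao, a later step, was not called (difference 0.01), and Acmsd, which diverts the pathway from nicotinamide synthesis, was at least 9.70-fold higher in kidney. The histidine enzymes Hal and Uroc1 were at least 20.4-fold and 58.6-fold higher in liver.

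Carbohydrate genes also divided. The gluconeogenic enzyme Pck1 read 13.26, 12.88, 12.87, 13.11 and 12.88 in liver and 12.93, 13.14, 12.82, 12.47 and 12.94 in kidney, and the groups overlapped (difference 0.14 ± 0.12 SE, adjusted p = 0.318), although centring each array on its median gave 0.34 and a call (adjusted p = 0.0265). Of 15 genes of gluconeogenesis and glycogen, 7 were called higher in liver, 4 at 4-fold, and 7 in kidney, 1 at 4-fold. Ppp1r3b, which targets a phosphatase to glycogen, read 11.46 ± 0.23 in liver against 4.56 ± 0.20 in kidney. The lactate dehydrogenase subunits differed in opposite directions: Ldha was 5.07-fold higher in liver, and Ldhb read 12.98, 12.88, 13.05, 12.92 and 12.85 in kidney and 6.05 to 6.30 in liver, 109-fold higher in kidney. Of 19 glycolysis and fructose genes 13 were called higher in kidney and 3 in liver (37.8% and 34.3% of all genes). The kidney genes included Aldoa (10.5-fold) and Pfkm (at least 6.84-fold, with another probe set under 2-fold). The liver genes included Gckr, the glucokinase regulator (33.5-fold).

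Fatty acid oxidation differed by the rule used. Of 29 genes 19 were called higher in liver and 9 in kidney (34.3% and 37.8% of all genes). By the 4-fold rule 3 were higher in liver and 5 in kidney (4.19% and 5.85% of all genes). The largest difference was that of Fabp1, the fatty acid carrier of liver, at least 414-fold higher in liver. Of the ketone body genes Bdh1, which makes 3-hydroxybutyrate, was 12.9-fold higher in liver, and Oxct1, which lets tissues burn ketone bodies, read 13.12, 13.12, 13.03, 13.13 and 12.98 in kidney and 5.44 to 6.20 in liver, 140-fold higher in kidney. The fatty acid carrier of heart and kidney, Fabp3, was 38.2-fold higher in kidney, and Acot1 at least 32.7-fold. Ppara, the receptor that induces these genes, was not called (5.75 ± 0.25 and 5.53 ± 0.33), except with each array centred on its median (0.42, adjusted p = 0.0277). Of 24 genes of fatty acid and cholesterol synthesis 21 were called higher in liver, 11 at 4-fold. Fdps and Fads2 were 10.9-fold and 9.90-fold higher in liver. Scd and Thrsp varied in both organs: Scd read 11.34, 9.80, 11.78, 9.17 and 10.93 in liver and 5.02, 5.44, 6.77, 8.34 and 4.50 in kidney. Kidney replicate 4, the highest for Scd, was also the kidney array with the highest mean of the 6 adipocyte markers (6.53), and the part of adipocytes in these kidney levels was not tested.

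The citric acid cycle and respiratory chain were higher in kidney nearly throughout. Of 33 genes 32 were called higher in kidney and none in liver, but the differences were small, with a median of -0.94 and 5 genes at 4-fold. Idh2 and Idh3a were 4.57-fold and 4.28-fold higher in kidney, Cox8a, chosen after its value was seen, 2.72-fold, and the mitochondrial nucleotide carrier Slc25a4 18.7-fold. Ppargc1a, the coactivator of mitochondrial genes, was 5.08-fold higher in kidney. Sdha was not called (difference -0.17, adjusted p = 0.0762), but was called without kidney replicate 2 (-0.21, adjusted p = 0.0332) or without liver replicate 2 (-0.20, adjusted p = 0.0486). With no array left out, limma also called it with a variance trend and robust moderation (adjusted p = 0.0349) and in a fit of all 49 arrays (adjusted p = 0.0122). Gulo, the last enzyme of vitamin C synthesis, read 11.65 ± 0.06 in liver against 4.13 ± 0.21 in kidney. Of the carnitine synthesis enzymes, Bbox1, the last step, read 10.88 ± 0.12 in liver against 3.57 ± 0.18 in kidney, whereas Tmlhe, the first step, chosen after its value was seen, was 6.38-fold higher in kidney. Miox, which oxidises inositol, read 14.10 ± 0.06 in kidney against 9.09 ± 0.10 in liver, 32.1-fold higher in kidney.

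**Figure D4:**
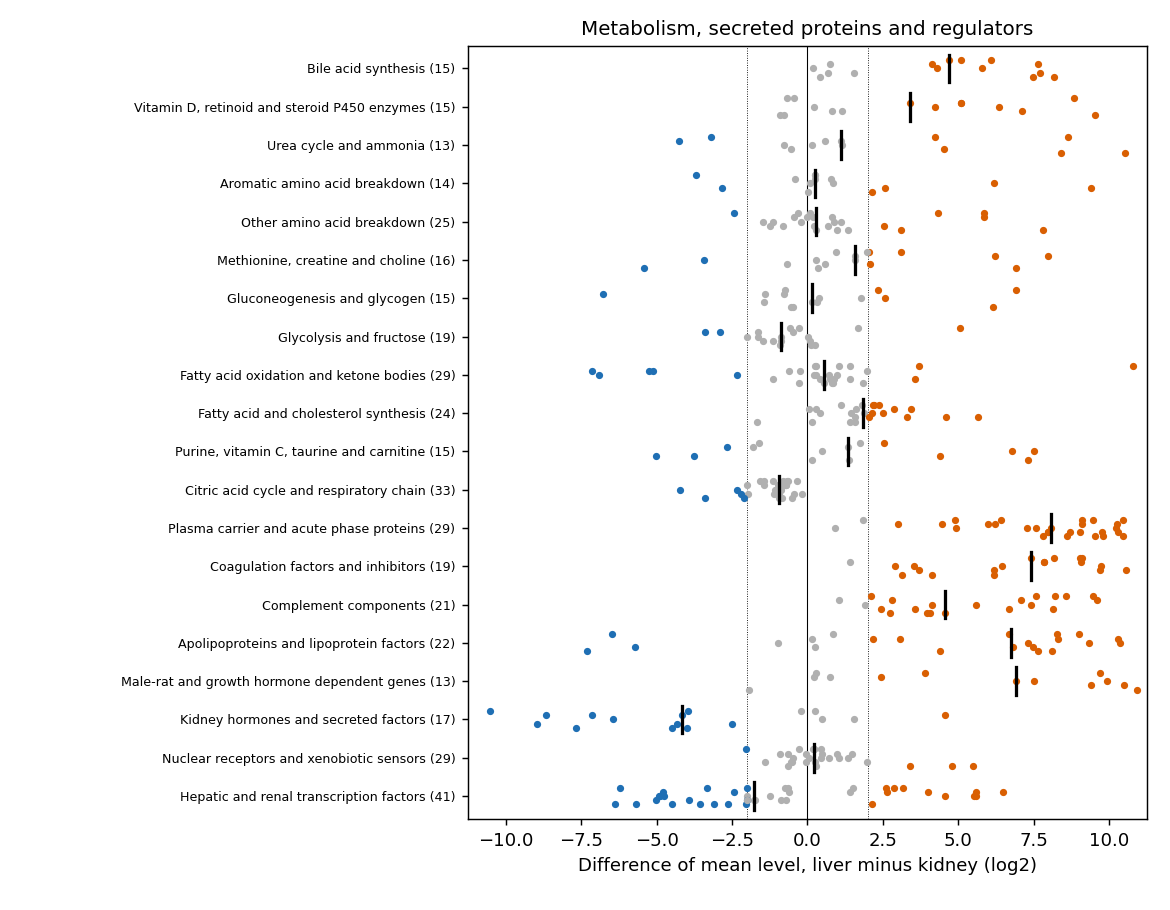
Difference of mean log2 level, liver minus kidney, for every measured member (points) of 20 lists of metabolic, secreted and regulatory genes; the bar marks the median of each list, orange points were called and at least 4-fold higher in liver, blue points called and at least 4-fold higher in kidney, and grey points neither. Plasma, coagulation and complement genes lie on the liver side alone, and all 33 genes of the citric acid cycle and respiratory chain lie at or left of -0.17.

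Of 108 genes in 5 lists of plasma proteins, coagulation, complement, lipoprotein and kidney secreted factors, which include some receptors and enzymes, 80 were at least 4-fold higher in liver and 15 in kidney, 88.0% together. All 29 plasma carriers and acute phase proteins, all 19 coagulation genes and all 21 complement genes measured were called higher in liver, with 27, 18 and 19 at 4-fold. Fgb and Fgg, chains of fibrinogen, read 13.80 ± 0.07 against 4.07 ± 0.19 and 14.01 ± 0.02 against 3.43 ± 0.30. C3, the central complement protein, read 14.03, 14.06, 14.08, 14.09 and 14.03 in liver and 6.35 to 6.54 in kidney, 192-fold higher in liver. Mbl2, a lectin that starts complement, was at least 140-fold higher in liver, and Cfp, made by leukocytes, was 2.06-fold higher. Igfbp1 was the member of the plasma list closest to equal, 1.89-fold higher in liver with overlapping arrays. Among apolipoproteins Apoa1, Apoa2, Apob and Apoc1 were each at least 284.5-fold higher in liver, and Apobec1 was not called. The male-specific liver proteins Obp3 and Rup2, which reach the urine of male rats, were at least 107-fold and 435-fold higher in liver, and Cyp2c11, the male-specific P450, 185-fold.

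On the kidney side Klk1, tissue kallikrein, read 11.28 ± 0.23 against 3.62 ± 0.22, and the meprin subunits Mep1a and Mep1b were at least 46.7-fold and 19.0-fold higher in kidney. The receptors that retrieve filtered proteins and vitamins were higher there too: Lrp2 (megalin) by 52.8-fold and Cubn (cubilin) by at least 38.5-fold. Epo, the hormone made by kidney interstitial cells, was not shown above background in either organ and was chosen after its value was seen (3.47 ± 0.14 in liver and 3.00 ± 0.16 in kidney).

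Genes of related function were set side by side in pairs, and each difference below is that of 1 gene between organs. For arginases, Arg1 was at least 198-fold higher in liver, and Arg2, the mitochondrial form, read 8.40, 8.02, 7.29, 8.08 and 8.73 in kidney and 3.45 to 4.22 in liver, at least 6.16-fold higher. For methionine adenosyltransferases, Mat1a read 12.57, 12.37, 12.21, 12.43 and 12.66 in liver and 4.01 to 4.91 in kidney, and Mat2a 11.53, 11.59, 10.88, 11.27 and 11.81 in kidney and 7.66 to 8.08 in liver, although another probe set of Mat2a had the opposite sign. For creatine, Gatm, the first step, read 13.35, 13.34, 13.51, 13.50 and 13.34 in kidney and 7.86 to 8.12 in liver, 43.0-fold higher in kidney, and Gamt, the second step, was 4.20-fold higher in liver; another probe set of Gatm had the opposite sign near background. The intermediate guanidinoacetate is known to pass from the kidney to the liver.

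For glycogen synthases, Gys2 was at least 15.1-fold higher in liver and Gys1 at least 2.08-fold higher in kidney. For corticosterone, Hsd11b1, which regenerates the hormone, was 1.44-fold higher in liver at 13.15 ± 0.07 against 12.63 ± 0.19, so that only the inactivating Hsd11b2 passed 4-fold. For glucose, the facilitated carrier Slc2a2 was 3.02-fold higher in liver and the cotransporter Slc5a2 at least 32.3-fold higher in kidney. For dicarboxylates, Slc13a2 was 10.4-fold higher in kidney, and Slc13a5, the citrate carrier of hepatocytes, was not shown above background in either organ. Pklr, the pyruvate kinase of liver, was 3.20-fold higher in liver, Hk1, a hexokinase of most cells, 3.99-fold higher in kidney, and Gls2, the glutaminase of liver, 18.6-fold higher in liver. Partners of Gls2, Pklr, Hk1, Slc22a2 and Oxct1, and the HNF1 pair, were not analysed here.

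Spread among animals was small beside the organ differences but was not even. The median SD of genes above background was 0.135 in liver and 0.120 in kidney. Among the liver 4-fold genes the most variable in liver were Cdh17, a cadherin, with 9.41, 6.44, 10.75, 9.14 and 8.16 in liver, Onecut1, and the fasting hormone Fgf21, with 8.11, 10.36, 7.89, 9.54 and 10.55. Among the kidney 4-fold genes the most variable in kidney were Resp18, with 8.83, 5.28, 8.49, 5.15 and 5.91, Cyp1a1, and Tmem174, with 8.85, 11.07, 11.14, 11.07 and 8.72. Of the liver 4-fold genes Car3, a carbonic anhydrase, varied most in kidney, with 6.49, 6.04, 9.31, 10.28 and 4.11. These genes were chosen by their spread. Kidney replicate 5 held the lowest value of 244 of the 832 kidney genes and replicate 3 the highest of 282. Among the 595 liver genes each of the 5 livers held the lowest value of 103 to 145. The highest value lay in liver replicate 3 for 178 of them and in liver replicate 1 for 78.

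The organ differences recurred in rats given 1 mg/kg, the lowest dose, whose 4 liver and 4 kidney arrays were fitted separately. There 9100 genes (64%) were called, 4252 (29.9%) higher in liver and 4848 (34.1%) higher in kidney, with 595 (4.19%) and 834 (5.87%) at 4-fold. Each of the 595 liver and 832 kidney genes of the vehicle comparison was called in the same direction, and 570 and 779 again reached 4-fold. The median change of the difference between doses was 0.14 in liver genes and 0.16 in kidney genes, and the largest was 1.35, in Pbsn. Cyp3a2 differed by 10.94 in vehicle and 10.94 at 1 mg/kg, Slc22a6 by -7.03 and -7.21, Cyp4a8 by -7.11 and -7.25, and Cyp1a1, the variable gene, by -2.42 and -2.50. A test of the change of the organ difference between doses, added after the data were seen, called 0 of 14217 genes with limma (752 at an unadjusted p under 0.05).

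**Figure D5:**
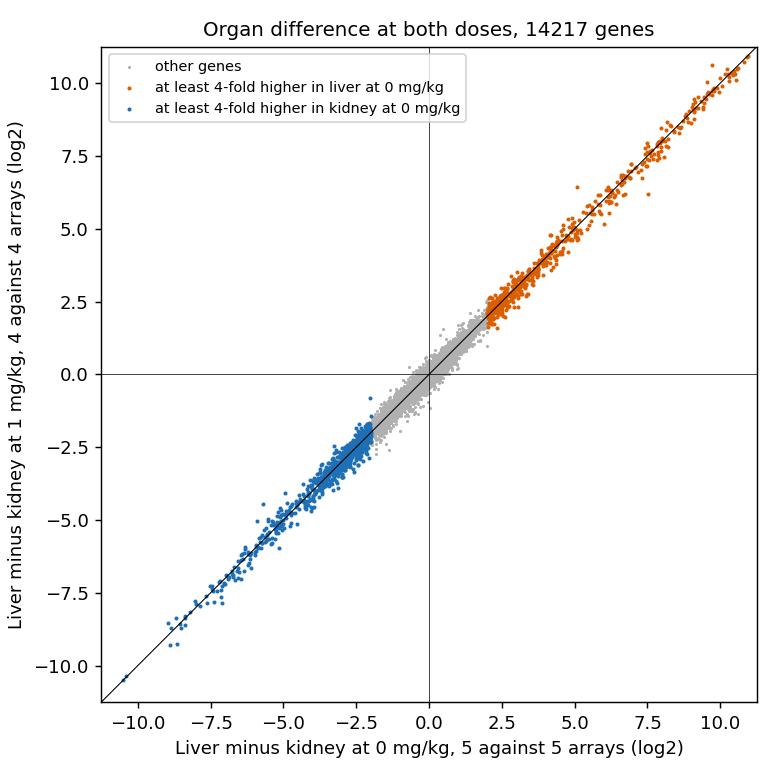
Difference of mean log2 level, liver minus kidney, of 14217 genes in vehicle rats (horizontal axis, 5 against 5 arrays) and in rats given 1 mg/kg (vertical axis, 4 against 4 arrays); orange and blue points are the 595 and 832 genes of the 4-fold rule in vehicle, and the diagonal marks equal differences. All coloured points keep their sign.

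Other probe sets of the same genes bear on these calls. Of the liver 4-fold genes 152 had 211 further probe sets, of which 210 had the same sign and 104 also reached 4-fold. Of the kidney genes 266 had 374 further probe sets, of which 302 had the same sign and 123 reached 4-fold, and 2 probe sets of Spink1 differed at least 2-fold in the opposite direction. Among genes named above, another probe set was under 2-fold or of opposite sign also for Apob, Ces1c, Fgb and Pon1, and, of genes between 2-fold and 4-fold, for Hk1 (0.48, opposite sign) and Slc22a8. Centring each array on its median gave calls toward liver for Aldh4a1, Apobec1, Slc20a1, Slc22a17 and Ugdh, which were not called on the deposited scale (differences 0.25 to 0.34, adjusted p = 0.0022 to 0.0284), and quantile normalization did so for Apobec1, Slc20a1 and Slc22a17 (0.25 to 0.34, adjusted p = 0.00241 to 0.0412).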

How the data were processed

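The deposited values are RMA values on a log2 scale, per the submitters' processing notes, from Affymetrix Rat Genome 230 2.0 arrays. The RMA version, whether both organs were normalised together, and processing dates are not given in the sources used here. Of 31099 probe sets, 57 were controls, 20826 had 1 gene symbol in the platform annotation, 436 had several and 9780 had none. The Entrez identifier gave the current symbol of 20758 probe sets, an accession that of 2 more, and the platform's own symbol stayed for 66. Each of 14217 genes was read from its probe set of highest mean over the 49 arrays. Organs were compared with limma (version 3.58.1, R 4.3.3; lmFit and eBayes) within each dose, with Benjamini-Hochberg adjustment over all genes. No sample was dropped. Named genes were the 15 largest called differences each way, up to 6 largest and the smallest of each list, written pairs and the first markers of each cell type. Any other gene is said to have been chosen after its value was seen. Members and lists were chosen with earlier results of these data known. Arrays were simulated with the real spread, every organ difference removed and 50 genes changed at each fold size. There 74% of 1.5-fold, 98% of 2-fold and 100% of 4-fold changes were called, and 5 of 14017 unchanged genes. The simulation held few changed genes and no offset between organs, so its rates do not measure false calls in the real data. In the real data 72.1% of all genes and 56.6% of the background reference genes were called. Promoter sequences are RefSeq's (GRCr8). The number of arrays limits the precision.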

Additional observations from a re-analysis of the deposited data

Results flagged for a closer look

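Among 526 groups of 5 arrays (263 genes in 2 organs), 25 (4.75%) held an array whose gap to the nearest other took up more of the range than the limit of Dixon's test, and chance alone gives about 1 in 20. The RT1 class II gene RT1-Ba read 4.90 in liver replicate 5 against 8.94 to 9.66 in the others, and 4.90 in kidney replicate 5 against 9.72 to 10.39. Ubd, a ubiquitin-like gene induced by interferon, read 4.99 in liver replicate 1 against 8.26 to 8.97. In liver replicate 3, Apoa1 (13.58), Aqp8 (11.57), C4bpa (13.07) and Itih4 (13.50) lay above the other livers and Mbl2 (12.26), Nr5a2 (8.60) and Slco1a4 (11.75) below them. In liver replicate 2, Bdh1 (11.13) and Otc (11.98) lay above the others and Aldh1l2 (10.10) below. Mat2a was low in liver replicate 1 (7.66) and Aldh4a1 in liver replicate 5 (10.86).

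In kidney replicate 5, Aqp7 (10.31) lay above the other kidneys and Gpx3 (14.23) below them, and Slc22a17 was low in kidney replicate 4 (6.85). Chac1 read 5.81 in kidney replicate 5 against 5.32 to 5.40 in the other kidneys, all above the background of 5.20. Slc10a1 read 4.18 in kidney replicate 4, below background, against 5.34 to 5.62 in the others. The remaining such arrays concern levels at or below background, where readings have no order. These were Otc (3.80) in kidney replicate 5, Cldn10 (3.93) and Slc5a3 (3.83) in liver replicate 4, Fmo2 (3.89) in liver replicate 5 and Nr1i3 (2.65) in kidney replicate 2. None of the arrays named in this section crossed to the other organ's side in a gene called at 4-fold.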

How the results depend on the processing

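Calls of 4-fold genes kept within 1.5 times of their count under every alternative except the test of brighter genes only, which tested 7109 genes. It called 5821 genes at 0 mg/kg (2261 liver, 3560 kidney; 487 kidney genes at 4-fold) and 5489 at 1 mg/kg (2264 and 3225; 472), and 481 vehicle kidney genes were called the same way at 1 mg/kg. Leaving out 1 array gave 9802 to 10147 called genes at 0 mg/kg and 8368 to 8894 at 1 mg/kg. Taking the median of the reference list as background left 118 liver and 165 kidney genes at or below it in the other organ, and its highest member 451 liver genes. At 16-fold the share of promoters with a match was 7.39% (HNF1) and 20.2% (TATA) in liver genes and 2.56% (HNF1), 1.28% (HNF4) and 12.2% (TATA) in kidney genes, from smaller sets of genes. Averaging all probe sets reversed Spink1 to 0.81. List medians changed sign for P450 family 1 (-0.02 without kidney replicate 3, -0.05 without liver replicate 1), acyl conjugation (-0.17, brighter genes) and gluconeogenesis (-0.02, quantile normalization); other causes were not tested. Of 4948 refits of the named genes 4917 kept the call. Any change of direction among these was in a gene called in neither fit.

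With the replicate number as a block 10208 genes were called (4845 liver, 5363 kidney; 595 and 832 at 4-fold). Same-numbered arrays correlated at 0.0632 to 0.2288 after removal of the organ means, and arrays of different numbers at 0.05 at most. Thus 10 of 10 arrays correlated best with their own number. The main fit did not treat the numbers as pairs, because the labels do not state that equal numbers mark one rat. The block changed the call of Mx2, Pxmp4, RT1-Ba, RT1-Bb and Ubd, which were not called without it, and of no other named gene. These genes were chosen after their values were seen to follow the replicate number.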

Other observations

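Genes that differed between arrays of one organ more than between organs were chosen after their values were seen. RT1-Bb, an RT1 class II chain, read 6.81, 4.11, 7.48, 3.42 and 7.57 in liver replicates 1 to 5 and 9.17, 3.94, 9.03, 4.15 and 9.83 in kidney replicates 1 to 5, so that replicates 2 and 4 were low in both organs. RT1-Ba was low in replicate 5 of both organs (4.90 and 4.90). Pxmp4, a peroxisomal membrane protein, read 9.66, 10.41, 9.95, 6.94 and 9.18 in liver and 10.29, 10.99, 10.99, 7.92 and 9.97 in kidney, lowest in replicate 4 of both. Ubd read 4.99, 8.26, 8.54, 8.33 and 8.97 in liver and 4.58, 6.69, 7.49, 8.34 and 8.00 in kidney, lowest in replicate 1 of both. Mx2, an interferon-induced GTPase, read 4.47, 4.87, 7.61, 6.72 and 6.73 in liver and 4.64, 4.21, 10.01, 8.78 and 8.43 in kidney, and was low in replicates 1 and 2 of both. None of the 5 genes was called between organs with limma (adjusted p from 0.304 to 0.744). With the replicate number as a block limma called all 5 (adjusted p from 5.88e-05 to 0.037), 4 toward kidney and Ubd toward liver. Because the genes were chosen with their agreement by number in view, the block was bound to lower their residual spread. Its calls are thus no independent evidence. Ubd was also called without liver replicate 1 (1.504, adjusted p = 0.0492). The labels do not state whether equal numbers mark the same animal.

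Genes of one organ also lay side by side in the genome. In RefSeq gene order, 96 pairs of the 595 liver genes were neighbours among the 14199 measured genes placed, and 91 pairs of the 831 kidney genes placed. Runs of at least 3 neighbours numbered 18 in liver, with 67 genes, and 7 in kidney, with 25 genes. The longest, of 8 liver genes on chromosome 1, held the P450 genes Cyp2c11, Cyp2c6v1, Cyp2c7, Cyp2c12, Cyp2c13 and Cyp2c22, close copies whose probe sets may read each other. A run of 6 on chromosome 6 held Serpina10, Serpina6, Serpina1 and Serpina11. No chance level was computed for these counts.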
